A study of Homo sapiens with 10 samples.

Results

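CDKN1A, MDM2, GADD45A, GDF15, PPM1D, SESN1, SESN2, BTG2, TNFRSF10B and ZMAT3 are 10 genes best known as targets of the tumor suppressor p53 after DNA damage, and they were followed in PC-3 cells, an established line from a human prostate cancer that lacks functional p53. The members were taken by gene symbol, and all 10 were among the 18144 genes listed. RNA of PC-3 spheroids (3D) was sequenced from cultures with no drug on days 0, 3 and 7, with conventional topotecan (CONV-TOPO, a single bolus) on days 3 and 7, and with extended exposure topotecan (EE-TOPO, the dose given in daily fractions) on days 3 and 7. Each treatment and day had 1 library, so the 7 libraries hold no replicates, and the samples of day 1 (3 libraries) were not analysed here. All 7 libraries came from the same unmodified line, so no library with functional p53 is at hand for comparison.

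Topotecan traps topoisomerase I on DNA, and replication forks that run into the trapped enzyme leave DNA breaks. In cells with p53, the kinases ATM and ATR stabilize p53, which then binds response elements in these genes and raises their transcription, and MDM2 and PPM1D feed back to switch p53 off. Most of the 10 genes also answer to other factors, among them ATF4 in the integrated stress response, which raises GDF15 and SESN2, and immediate early signals, which raise BTG2 and GADD45A.

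Depth was estimated at 15.0 to 22.5 M reads (M, 1000000) per library from the smallest step between the deposited values. The values are counts per 1000000 reads (CPM). Folds between libraries were taken after TMM scaling (trimmed mean of M values, factors 0.883 to 1.09), so they differ from the ratio of the CPM printed here, and their 95% intervals cover counting error alone. Epithelial and mesenchymal genes known from PC-3 were present throughout, with KRT8 at 624 to 1169 CPM and VIM at 731 to 1074 CPM, whereas KLK2 and KLK3, which PC-3 lacks, were not listed. TMPRSS2, taken to be absent from PC-3, was at 71.4 to 149 CPM. The leukocyte marker PTPRC reached at most 0.489 CPM, the fibroblast marker DCN 0.264 CPM and the endothelial marker VWF 0.158 CPM. The summed leukocyte list was 69.3 to 101 CPM in untreated and 98.3 to 132 CPM in topotecan libraries, most of it from CD68 (65.7 to 128 CPM), a lysosomal gene. The fibroblast list summed to 58.6 to 92.2 and 53.4 to 87.0 CPM, and the endothelial list to 41.9 to 61.7 and 38.5 to 83.9 CPM. Of the fibroblast list, COL1A1 was at 46.6 to 83.0 CPM and COL3A1 at 3.26 to 16.0 CPM over the 7 libraries. Of the endothelial list, KDR was at 15.7 to 63.6 CPM and PECAM1 at 16.8 to 32.7 CPM. The part of these lists in the results was not tested.

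The transcription factors TP63 (0.133 to 1.96 CPM over the 7 libraries) and TP73 (2.60 to 5.04 CPM), which can bind p53 response elements, were scarce. Neither passed the test on topotecan day 7.

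The members were all expressed without p53, over a wide range. Per kilobase of transcript, GDF15 was the highest (mean of 916 TMM-scaled CPM per kb, range 288 to 2089), followed by GADD45A (99.7), CDKN1A (44.6), TNFRSF10B (29.6), SESN2 (10.9), MDM2 (9.69), PPM1D (3.23), ZMAT3 (1.67), SESN1 (1.30) and BTG2 (0.840). The ranges over the 7 libraries did not overlap between GDF15 and GADD45A, between TNFRSF10B and SESN2, between MDM2 and PPM1D, or between PPM1D and ZMAT3, and they overlapped between the other neighbors in this order. MDM2 was the steadiest, with 1.25-fold between its lowest and highest library after scaling, and GDF15 the most variable at 7.25-fold.

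**Figure D1:**
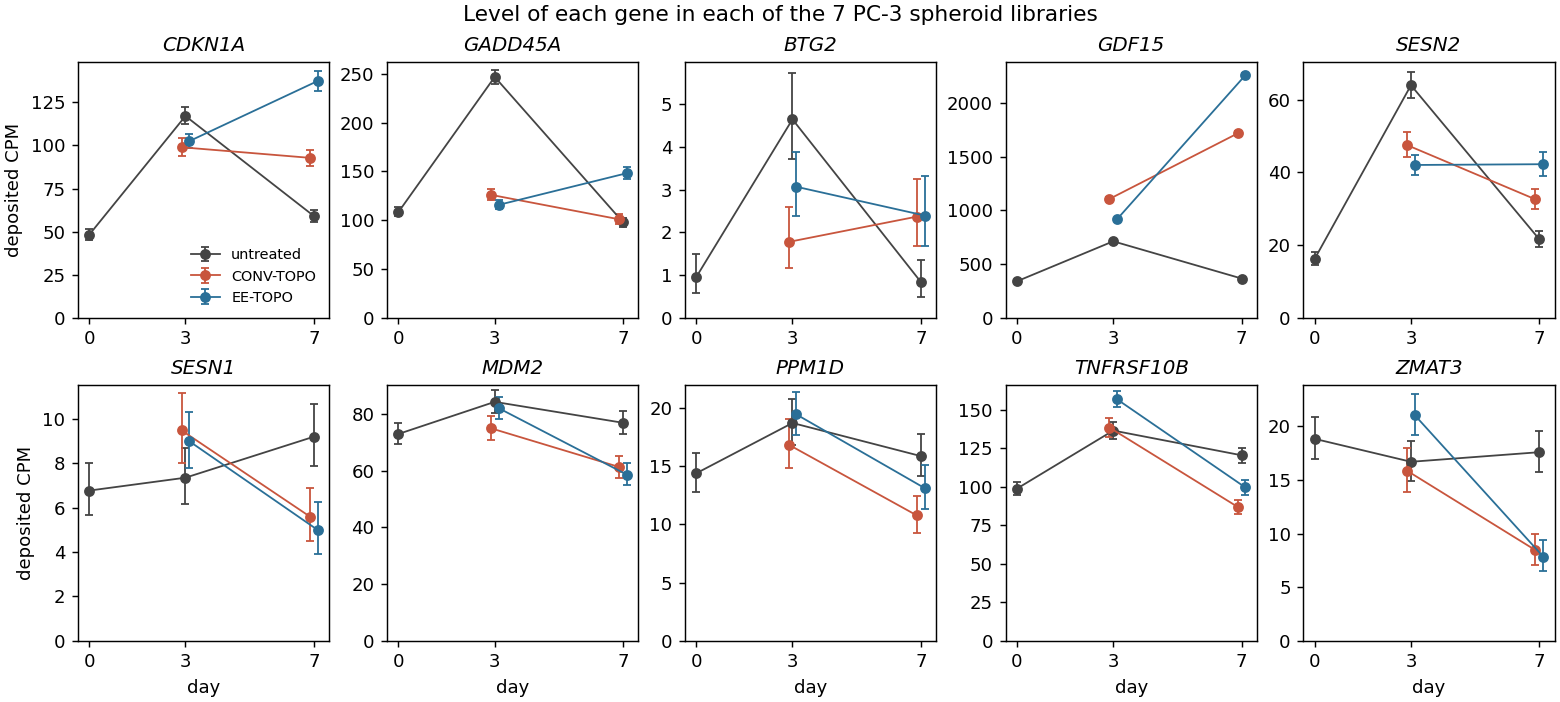
Deposited CPM (vertical axis, from 0, own scale per gene) by day for each of the 10 genes in untreated (grey), CONV-TOPO (red) and EE-TOPO (blue) spheroids, 1 library per point, with 95% counting intervals. CDKN1A, GADD45A, BTG2, GDF15 and SESN2 peak among untreated libraries on day 3, and ZMAT3 is lowest in both topotecan libraries of day 7.

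Promoters from RefSeq (GRCh38.p14) were at hand for 8 of the 10 genes, and the 250 bases before each start were searched on both strands for the strict decamer of the p53 response element, the ATF4 composite element TGATGNAA and the AP-1 site TGANTCA. The p53 decamer was found in 1 of the 8, SESN1, against 6.80% of all genes with a promoter. The AP-1 site was found in 1, the internal promoter of MDM2, against 8.06% of genes, and the ATF4 element in none, against 3.89%. These matches describe the letters only. A p53 site that departs from the strict decamer, or lies outside the 250 bases, was not counted. A window without a match, that of MDM2 included, is therefore not shown to lack a p53 site. Shown are the window that holds the p53 decamer, the MDM2 window, and for comparison the windows of GDF15 and SESN2, whose levels differed most between libraries among the genes over 10 CPM. Capitals mark the match, and all are written 5′ to 3′ on the strand of the gene.
SESN1, chr6:109008989-109009238, minus strand, with the p53 decamer: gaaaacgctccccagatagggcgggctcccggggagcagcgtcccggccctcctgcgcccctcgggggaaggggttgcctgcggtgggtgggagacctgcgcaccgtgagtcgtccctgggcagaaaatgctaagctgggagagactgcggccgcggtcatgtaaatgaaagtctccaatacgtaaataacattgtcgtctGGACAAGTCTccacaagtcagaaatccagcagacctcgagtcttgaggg
MDM2, chr12:68808767-68809016, plus strand, internal promoter with the AP-1 site: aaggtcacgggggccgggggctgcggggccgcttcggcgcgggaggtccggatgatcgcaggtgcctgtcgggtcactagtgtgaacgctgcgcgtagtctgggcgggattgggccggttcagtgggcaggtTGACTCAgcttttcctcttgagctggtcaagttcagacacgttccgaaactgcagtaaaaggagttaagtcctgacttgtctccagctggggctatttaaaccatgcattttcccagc
GDF15, chr19:18385908-18386157, plus strand, no match: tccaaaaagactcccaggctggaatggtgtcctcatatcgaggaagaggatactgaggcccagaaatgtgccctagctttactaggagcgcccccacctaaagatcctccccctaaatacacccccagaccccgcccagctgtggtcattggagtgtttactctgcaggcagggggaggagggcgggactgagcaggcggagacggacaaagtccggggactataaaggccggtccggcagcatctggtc
SESN2, chr1:28259268-28259517, plus strand, no match: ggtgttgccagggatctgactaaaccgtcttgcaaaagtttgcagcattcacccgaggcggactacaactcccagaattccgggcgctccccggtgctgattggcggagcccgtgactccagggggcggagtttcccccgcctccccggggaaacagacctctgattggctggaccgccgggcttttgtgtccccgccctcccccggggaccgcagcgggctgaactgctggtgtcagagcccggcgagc

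The first comparison was among the untreated libraries, to learn how far the genes move with time alone. On day 3 without drug, CDKN1A, GADD45A, SESN2, BTG2 and GDF15 stood at about 2-fold or more of their day-0 level, and all were back near that level on day 7. At a mean of at least 10 CPM, which 8 of the 10 genes reached, 3 were at least 2-fold higher on day 3 than on day 0 (CDKN1A, GADD45A and SESN2), against 1.43% of 9917 genes. None were 2-fold lower (0.292% of genes). From day 3 to day 7 the same 3 genes were at least 2-fold lower (0.941% of genes) and none higher (0.671%), and between days 0 and 7 none differed 2-fold in either direction (0.879% of genes higher and 0.162% lower). With 1 library a day, time in culture and a property of this library cannot be told apart, and in bulk RNA fewer cells of a kind and less RNA per cell cannot be told apart either.

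The arrest and repair genes come first. CDKN1A encodes p21, the inhibitor of cyclin-dependent kinases that holds cells in G1. Without drug its CPM was 48.1 on day 0, 117 on day 3 and 59.1 on day 7. On days 3 and 7 it was 99.0 and 92.8 under CONV-TOPO and 102 and 137 under EE-TOPO, and values below follow the same order. On day 3 both topotecan libraries lay below the untreated library, at 0.819-fold (0.766 to 0.875) in CONV-TOPO and 0.835-fold (0.787 to 0.885) in EE-TOPO. On day 7 both lay above it, at 1.87-fold (1.73 to 2.02) and 2.72-fold (2.52 to 2.92). The untreated day-3 library still reached 117 CPM, above CONV-TOPO on day 7, so the groups overlap.

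GADD45A encodes a stress sensor that takes part in G2/M arrest, DNA repair and p38 signaling. It had 108, 247 and 97.9 CPM in the untreated libraries, 126 and 101 CPM in CONV-TOPO and 116 and 148 CPM in EE-TOPO. The highest level was that of the untreated spheroids of day 3, above all 4 topotecan libraries. Compared with that library, GADD45A was lower by more than 2-fold in both regimens, at 0.495-fold (0.469 to 0.522) in CONV-TOPO and 0.447-fold (0.426 to 0.469) in EE-TOPO. On day 7 it was at 1.23-fold (1.15 to 1.31) and 1.77-fold (1.66 to 1.88) of the untreated library.

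BTG2, an antiproliferative gene of the BTG/TOB family, was barely expressed, with 16 to 88 estimated reads per library. Its levels were 0.952, 4.65 and 0.840 CPM in the untreated libraries, 1.78 and 2.37 CPM in CONV-TOPO and 3.07 and 2.40 CPM in EE-TOPO. Again untreated day 3 was the highest. The folds on day 7 were 3.36 (1.83 to 6.44) in CONV-TOPO and 3.33 (1.80 to 6.42) in EE-TOPO, with wide intervals because of the low counts.

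GDF15 encodes a secreted cytokine of the TGFβ superfamily that is a general readout of cell stress. It had 339, 711 and 365 CPM in the untreated libraries, 1105 and 1716 CPM in CONV-TOPO and 917 and 2257 CPM in EE-TOPO. All 4 topotecan libraries lay above all 3 untreated libraries, and both day-7 libraries lay above both day-3 libraries. After scaling, both topotecan libraries lay above all 3 untreated libraries for 15.6% of all genes on day 3 and 29.2% on day 7. The share with all 4 above was not counted. The fold over the same-day untreated library was 1.50 (1.47 to 1.54) and 1.23 (1.20 to 1.26) on day 3, and 5.59 (5.45 to 5.74) and 7.22 (7.03 to 7.41) on day 7, for CONV-TOPO and EE-TOPO.

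SESN2 and SESN1 are sestrins, which restrain mTORC1 and limit oxidative stress. SESN2 had 16.2, 64.0 and 21.6 CPM in the untreated libraries, 47.5 and 32.6 CPM in CONV-TOPO and 42.0 and 42.3 CPM in EE-TOPO. As for GADD45A, the untreated spheroids of day 3 were above every topotecan library. On day 7 SESN2 was at 1.80-fold (1.58 to 2.05) of the untreated library in CONV-TOPO and 2.29-fold (2.02 to 2.59) in EE-TOPO.

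The paralog SESN1, whose window above holds the p53 decamer, showed another pattern. It had 6.76, 7.34 and 9.19 CPM in the untreated libraries, 9.47 and 5.59 CPM in CONV-TOPO and 8.99 and 4.99 CPM in EE-TOPO. On day 7 it was at 0.724-fold (0.557 to 0.938) and 0.634-fold (0.477 to 0.835) of the untreated library, lower in both regimens where SESN2 was higher.

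The feedback inhibitors of p53 differed less between libraries. MDM2, the ubiquitin ligase that degrades p53, had 73.0, 84.3 and 76.9 CPM in the untreated libraries, 75.0 and 61.3 CPM in CONV-TOPO and 82.1 and 58.6 CPM in EE-TOPO. PPM1D, the WIP1 phosphatase that removes damage-induced phosphates from p53 and ATM, had 14.4, 18.7 and 15.9 CPM in the untreated libraries, 16.8 and 10.8 CPM in CONV-TOPO and 19.4 and 13.1 CPM in EE-TOPO. Both genes had their 2 lowest CPM in the day-7 topotecan libraries. After scaling the folds on day 7 were 0.949 (0.875 to 1.03) and 0.890 (0.817 to 0.968) for MDM2, and 0.808 (0.667 to 0.975) and 0.965 (0.802 to 1.16) for PPM1D.

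TNFRSF10B, the TRAIL death receptor DR5, had 98.8, 137 and 120 CPM in the untreated libraries, 139 and 86.9 CPM in CONV-TOPO and 157 and 99.5 CPM in EE-TOPO. Its day-7 folds were 0.859 (0.803 to 0.918) and 0.965 (0.903 to 1.03). ZMAT3, a zinc finger protein that binds RNA and regulates splicing and mRNA stability, had 18.8, 16.7 and 17.6 CPM in the untreated libraries, 15.9 and 8.45 CPM in CONV-TOPO and 21.0 and 7.85 CPM in EE-TOPO. For ZMAT3 both day-7 topotecan libraries lay below the other 5, at 0.572-fold (0.466 to 0.699) and 0.521-fold (0.419 to 0.645) of the same-day untreated library. After scaling, both day-7 topotecan libraries lay below all 3 untreated libraries for 34% of all genes.

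**Figure D2:**
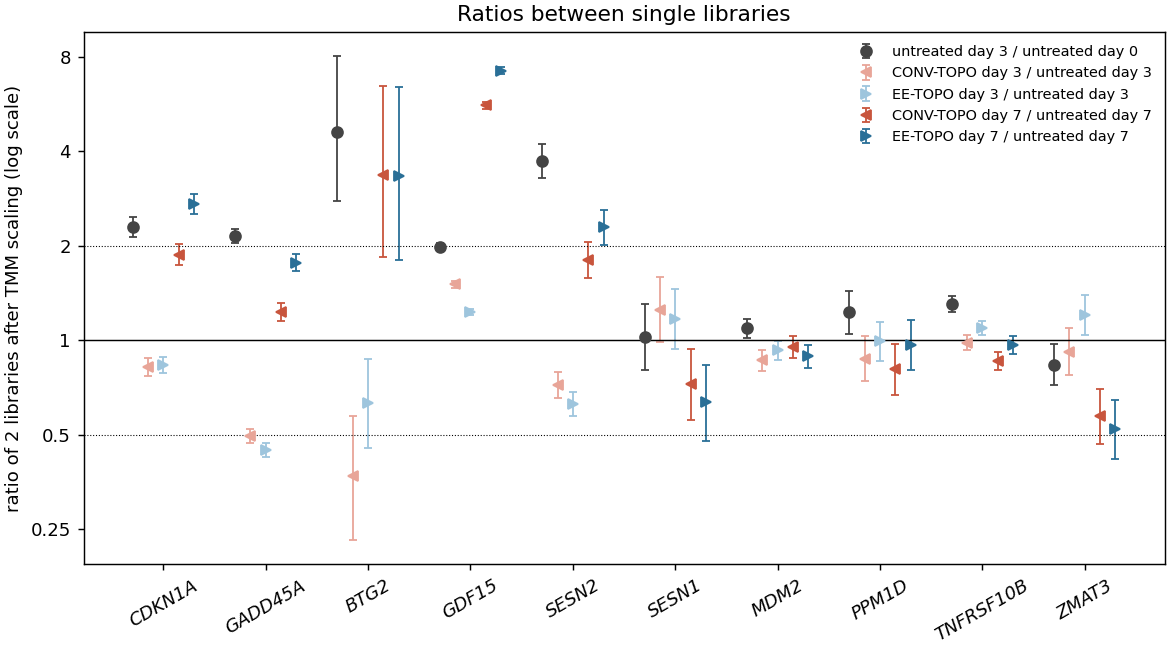
Ratio of 2 libraries after TMM scaling (vertical log axis) for each gene, with untreated day 3 over untreated day 0 as circles and each topotecan library over the untreated library of its day as triangles, pale for day 3 and dark for day 7. Bars are 95% counting intervals and dotted lines mark 2-fold. GADD45A is below 0.5 in both day-3 ratios, and GDF15 is above 5 in both day-7 ratios.

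Counted together at 10 CPM or more, topotecan on day 3 left 1 of 8 genes at least 2-fold below the untreated library in CONV-TOPO (0.31% of all genes) and 1 in EE-TOPO (0.5%), GADD45A both times, and none 2-fold above it (0.38% and 1.03% of genes). On day 7, 1 of 8 was at least 2-fold higher in CONV-TOPO (GDF15, against 8.75% of genes) and 3 of 8 in EE-TOPO (CDKN1A, GDF15 and SESN2, against 9.56%). None were 2-fold lower, against 8.08% of genes in CONV-TOPO and 9.7% in EE-TOPO. With the untreated library of day 0 as the baseline, GDF15 and SESN2 were at least 2-fold higher on day 3 in each regimen (2.29% of genes in CONV-TOPO and 2.82% in EE-TOPO) and none of the 8 was lower (0.614% and 1.47%), so the direction of the day-3 counts rests on the untreated day-3 library. On day 7 that baseline put CDKN1A, GDF15 and SESN2 above 2-fold in each regimen (5.25% and 6.34% of genes) and ZMAT3 below (4.97% and 6.87%). Against the same baseline, GADD45A in CONV-TOPO on day 3 was at 1.06-fold and BTG2 at 1.71-fold.

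EE-TOPO and CONV-TOPO were then compared on the same day, which asks whether the schedule of the drug matters for these genes. None of the 8 members at 10 CPM or more on day 3 differed 2-fold (0.17% of all genes higher and 0.12% lower in EE-TOPO). The same held for the 7 members at that level on day 7 (0.268% and 0.196%). The ratios furthest from 1 at 10 CPM or more were those of CDKN1A (1.45, 1.36 to 1.55) and GADD45A (1.44, 1.35 to 1.54) on day 7, both higher in EE-TOPO. GDF15 was at 0.817-fold (0.800 to 0.833) in EE-TOPO on day 3 and at 1.29-fold (1.27 to 1.31) on day 7. A limma fit with treatment and day as terms called 0% of 14836 genes in each of the 3 comparisons between treatments. The unadjusted p was under 0.05 for 527 genes in EE-TOPO against untreated, 257 in CONV-TOPO against untreated and 134 in EE-TOPO against CONV-TOPO. The adjusted p of the members was 0.908 or higher. With 2 residual degrees of freedom that fit takes the variation of an effect between days as error. GDF15 thus had a log2 fold change of 1.57 (SE 0.60) in EE-TOPO and 1.53 (SE 0.60) in CONV-TOPO, with an adjusted p of 0.908 and 0.913.

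To test days of treatment against each other, both regimens were pooled and compared with the 3 untreated libraries in a second limma fit. Its error is the spread between untreated days and between regimens, which are not replicates, so its p-values measure only that spread. On topotecan day 3, 0 of 10 members were called higher or lower, as were 0% of all 14836 genes in each direction (2287 had an unadjusted p under 0.05). On topotecan day 7, GDF15 and CDKN1A were called higher and ZMAT3 lower. These 2 of 10 higher stand against 20.1% of all genes and the 1 of 10 lower against 23.3%, so the share called among the members was at or under that of all genes. The median log2 fold change was -0.06 over the members and -0.05 over all genes.

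GDF15 rose by 2.34 (SE 0.27, adjusted p = 0.00016) on the log2 scale of this fit, which is log2(CPM + 1) after scaling. CDKN1A rose by 0.89 (SE 0.29, adjusted p = 0.028), and ZMAT3 fell by 0.85 (SE 0.18, adjusted p = 0.0032). The values of the other 7 were 0.57 (SE 0.41) for SESN2, 0.45 (SE 0.41) for BTG2, 0.03 (SE 0.32) for GADD45A, -0.14 (SE 0.13) for TNFRSF10B, -0.18 (SE 0.11) for MDM2, -0.23 (SE 0.17) for PPM1D and -0.30 (SE 0.19) for SESN1, none of which passed. GDF15 was called under each of 14 distinct alternatives. CDKN1A lost its call in 7 of 14, among them leaving out the untreated library of day 0 (0.66) or day 7 (0.76) or the EE-TOPO library of day 7 (0.63), and ZMAT3 in 1, the removal of a trend with gene structure. With library totals in place of TMM scaling the median of all genes moved from -0.05 to -0.22, 1994 genes were called higher and 4779 lower, against 2987 and 3460 with TMM. Of the members GDF15 was then called higher (13.4% of all genes), and MDM2 (-0.37, SE 0.11) and ZMAT3 lower (32.2%).

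The untreated library of day 3 decided several of these calls. Without it, topotecan day 7 was called higher for 4 members, GDF15 (2.67, SE 0.18), CDKN1A (1.25, SE 0.17), SESN2 (1.13, SE 0.18, adjusted p = 0.00056) and BTG2 (0.96, SE 0.26, adjusted p = 0.013), and lower for ZMAT3 (-0.90). These 4 of 10 higher and 1 of 10 lower stand against 19.9% and 22.4% of all genes in the same fit. Without it, topotecan day 3 was also called higher for GDF15 (1.42, SE 0.18, adjusted p = 0.0053), SESN2 (1.12, SE 0.18, adjusted p = 0.012) and CDKN1A (0.81, SE 0.17, adjusted p = 0.041), which is 3 of 10 against 1.1% of all genes, and lower for none (0.33%). On topotecan day 7, leaving out another untreated library moved SESN2 down to 0.22 (without day 0) and 0.36 (without day 7), and BTG2 to 0.23 and 0.16, with neither called. The untreated arm of the fit without the day-3 library holds those of days 0 and 7 only. Topotecan day 3 then has no untreated library of its own day, so day and drug cannot be told apart. The library left out held the highest untreated level of GDF15, SESN2 and CDKN1A, so leaving it out raises these differences. Against it, the day-3 folds in CONV-TOPO and EE-TOPO were 0.719 and 0.626 for SESN2, 0.819 and 0.835 for CDKN1A, and 1.50 and 1.23 for GDF15.

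**Figure D3:**
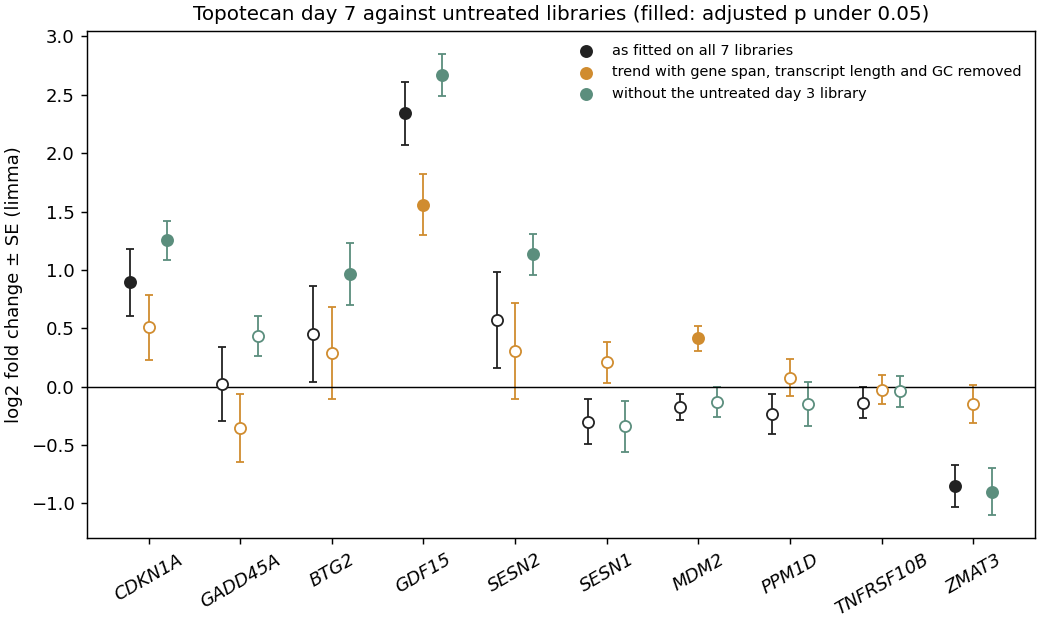
Log2 fold change ± SE of topotecan day 7 (2 libraries) against the untreated libraries from limma, for the fit on all 7 libraries (black), after removal of the trend with gene structure (orange) and without the untreated day-3 library (green), with filled points for an adjusted p under 0.05. GDF15 is filled in all 3, SESN2 and BTG2 in green only, and MDM2 in orange only.

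Gene length moved with the day-7 values. Over all genes, the median log2 ratio of topotecan to untreated on day 7, averaged over both regimens, was 0.56 for transcripts under 1500 bases and -0.49 for those of 5000 to 10000 bases. GDF15 (1200 bases) and GADD45A (1352 bases) belong to the first class, and MDM2 (7490 bases), SESN1 (5664 bases) and ZMAT3 (8936 bases) to the second. After the trend with gene span, transcript length and GC content was removed from each library, the day-7 mean went from 2.66 to 1.79 for GDF15, from 1.16 to 0.73 for CDKN1A, from 0.98 to 0.74 for SESN2 and from 1.03 to 0.81 for BTG2. That of ZMAT3 went from -0.81 to -0.02, and that of MDM2 turned from -0.12 to 0.53. In the fit on these values GDF15 was still called (1.56, SE 0.26, adjusted p = 0.0032), CDKN1A (0.51, SE 0.28) and ZMAT3 (-0.15, SE 0.16) were not, and MDM2 was called higher (0.41, SE 0.10, adjusted p = 0.02), which makes 2 of 10 higher against 10.3% of all genes and none lower against 12.1%. Whether RNA integrity, library preparation or transcription set this trend was not tested.

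Topotecan day 7 was also compared with topotecan day 3. GDF15 was higher on day 7 by 1.25 (SE 0.30, adjusted p = 0.0065) and ZMAT3 fell by 0.82 (SE 0.19, adjusted p = 0.0061), which is 1 member in each direction against 21.7% of all genes higher and 23.5% lower (3217 and 3487 genes). With library totals, GDF15 was called higher (13.1% of genes) and 5 of 10 members lower (35.6%), which were MDM2, PPM1D, TNFRSF10B, SESN1 and ZMAT3. Neither was called after the trend was removed (0.35 and 0.00), and MDM2 then was higher (0.58, SE 0.11, adjusted p = 0.008, 1 of 10 against 9.49% of genes higher and 0 of 10 against 8.96% lower). Without the EE-TOPO library of day 3 neither was called (1.10 and -0.64), and without that of day 7 GDF15 was not (1.06).

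By position relative to the 3 untreated libraries, after scaling, both topotecan libraries of day 3 lay above all of them for 1 member (GDF15, against 15.6% of genes) and below all of them for 0 (18.3%). On day 7, GDF15 lay above (29.2% of genes) and MDM2, PPM1D, SESN1 and ZMAT3 below (34%).

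Levels on untreated day 3 were then set beside those on topotecan day 7. The log2 ratio of untreated day 3 to day 0 and the mean log2 ratio of topotecan to untreated on day 7 share no library. Over the 10 members their Pearson r was 0.73, compared with 0.06 over 9985 genes at 10 CPM or more and -0.002 over 51 other p53 targets. Over 16 genes of ATF4 and the integrated stress response it was 0.57. The members and both lists were not held to 10 CPM, and BTG2 (at most 4.65 CPM) and SESN1 (at most 9.47 CPM) lay under it. The r values are descriptions across genes, which are not independent of each other. CDKN1A, GADD45A, GDF15, SESN2 and BTG2 were positive on both measures, although of these GDF15 and CDKN1A alone passed the test on topotecan day 7, and SESN1, MDM2, PPM1D and TNFRSF10B were positive on the first and negative on the second.

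**Figure D4:**
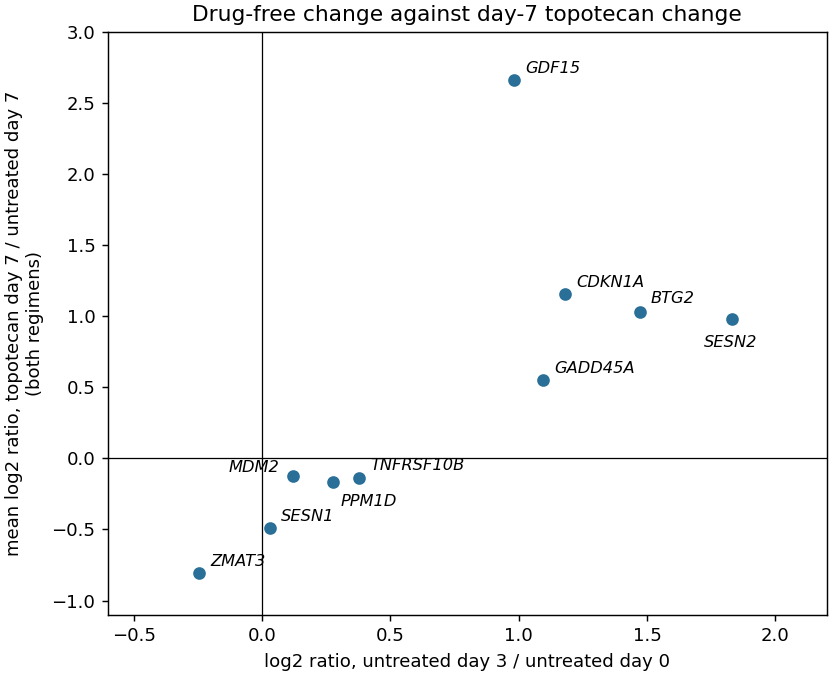
Each point is 1 of the 10 genes, with the log2 ratio of untreated day 3 to untreated day 0 on the horizontal axis and the mean log2 ratio of both topotecan regimens to the untreated library on day 7 on the vertical axis, both from log2(TMM-scaled CPM + 1). GDF15 (0.98, 2.66) is the highest point and SESN2 (1.83, 0.98) the furthest to the right.

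Profiles over the 7 libraries were compared by Pearson r. Among 9985 genes, the profile most like that of SESN2 was JUN, an AP-1 subunit (r = 0.97), followed by CEBPG, a partner of ATF4 (0.96). JUN was also the nearest to BTG2 (0.95), followed by ASNS, asparagine synthetase (0.95). The nearest were SH2D2A and RHOV for GDF15 (both 0.99), ZNF101 and CASP8 for CDKN1A (both 0.99), FANCG and POLDIP3 for GADD45A (both 0.97), and CMTM6 (1.00) and BPNT2 (0.99) for ZMAT3. For the others they were NKAP and MMP13 for MDM2 (0.98 and 0.96), MFAP3 and DSEL for PPM1D (both 0.98), SPIN3 and MAPKAPK5 for SESN1 (both 0.99), and ZNF430 and PTPN1 for TNFRSF10B (both 0.99). Each is the best of many genes over 7 points, so a high r follows in part from the search itself.

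Other genes of the pathway were read for context. Of 51 other p53 targets tested, 9 were called higher and 10 lower on topotecan day 7, which is 17.6% and 19.6% and below the share of all genes in both directions, with a median log2 fold change of -0.05. Without the untreated day-3 library the counts were 10 and 8 (19.6% and 15.7%, against 19.9% and 22.4% of all genes), and with library totals 6 and 15 (11.8% and 29.4%, against 13.4% and 32.2%). After removal of the trend with gene structure they were 6 and 10 (11.8% and 19.6%), there above the 10.3% and 12.1% of all genes. The highest day-7 ratios were those of PHLDA3, a repressor of AKT, at 225, 171 and 183 CPM in the untreated libraries and at 486 and 603 CPM in CONV-TOPO and EE-TOPO on day 7, and of SERTAD1 (log2 fold change 1.12, SE 0.23). PHLDA3 rose by 1.69 (SE 0.15). The lowest were KITLG, the ligand of KIT (-1.31, SE 0.18), and XPC, the damage sensor of nucleotide excision repair (-1.01, SE 0.19).

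Of 13 genes of the p53 family and the damage kinases, 0 were called higher and 5 lower (TP53BP1, ATR, PRKDC, ATM and HIPK2), which is 0% and 38.5% against 20.1% and 23.3% of all genes. HIPK2, a kinase that phosphorylates p53, had 831, 400 and 764 CPM in the untreated libraries and 200 and 158 CPM in CONV-TOPO and EE-TOPO on day 7. ATM was at 46.4, 47.1 and 73.5 CPM and at 18.8 and 16.1 CPM. Their transcripts are 15329 and 12915 bases long, in the class with a median log2 ratio of -0.79. ATR, ATM and HIPK2 remained called lower after the length trend was removed, 3 of 13 (23.1%) against 12.1% of all genes. In that fit 0 were called higher (10.3% of genes). With library totals, and without the untreated day-3 library, 6 of 13 were lower (46.2%, against 32.2% and 22.4% of genes).

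Among paralogs of the members, 3 of 13 tested were called higher and 4 lower on topotecan day 7, which is 23.1% and 30.8%, near the 20.1% and 23.3% of all genes. CDKN1C (p57), a relative of CDKN1A, had 17.5, 16.6 and 19.6 CPM in the untreated libraries and 29.8 and 42.0 CPM on day 7 in CONV-TOPO and EE-TOPO. GADD45B was at 39.1, 48.6 and 34.1 CPM and at 54.0 and 64.0 CPM. SESN3 (3.66, 4.65 and 5.25 CPM) was lower at 1.94 and 1.53 CPM, and PPM1B (27.8, 31.7 and 29.0 CPM) at 13.6 and 15.2 CPM. The third called higher was PPM1G and the others called lower were PPM1A and TNFRSF10A. Not called were CDKN1B (22.1 to 42.7 CPM over the 7 libraries), MDM4 (31.1 to 50.3 CPM), BTG1 (164 to 334 CPM), BTG3 (7.29 to 17.9 CPM), TNFRSF10C (at most 0.623 CPM) and ZMAT1 (at most 0.667 CPM). After the length trend was removed, CDKN1C, GADD45B, PPM1G and SESN3 were no longer called, PPM1A turned from called lower (-0.35, SE 0.11) to called higher (0.36, SE 0.10), MDM4 was called higher (0.60, SE 0.15), and PPM1B and TNFRSF10A stayed lower. That is 2 of 13 in each direction, against 10.3% of all genes higher and 12.1% lower.

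Reads of some members can overlap those of another gene, and the strand of counting is not given in the sources used here. CDKN1A overlaps DINOL on the opposite strand over 146 exonic bases, MDM2 the carboxypeptidase M gene over 133 and 2 unnamed genes, SESN1 an unnamed gene over 363 and TNFRSF10B RHOBTB2 over 374. The listed positions (hg38) are chromosome 6 from 36676463 to 36687333 for CDKN1A, chromosome 12 from 68808172 to 68850685 for MDM2, chromosome 1 from 67685201 to 67688335 for GADD45A, chromosome 19 from 18386158 to 18389177 for GDF15 and chromosome 3 from 179017225 to 179072514 for ZMAT3.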

How the data were processed

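Per the labels and the paper, the authors extracted total RNA, built libraries with the Illumina TruSeq kit, mapped reads to hg38 and normalized counts per gene. They deposited 1 table of CPM, summing to 1000000 per library, with an offset of 0.0001 that was subtracted here. From 90.3% to 91.9% of low values lay within 0.1 of a whole read step, too few for a count test, so the planned fits used CPM. Groups and days came from the sample titles, whereas the text of the study gives a longer time for the last point.

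The members and gene lists were chosen with earlier results of these data known. Fits used limma 3.58.1 under R 4.3.3, took log2(TMM-scaled CPM + 1) as input, and had empirical Bayes, a mean-variance trend, two-sided tests and Benjamini-Hochberg adjustment at 0.05, for the 14836 genes with at least 0.528 CPM (10 reads at the median depth of 18.9 M) in at least 2 libraries. All 10 members passed. The treatment and day fit used 6 libraries with 2 residual degrees of freedom, and the fit of untreated, topotecan day 3 and topotecan day 7 used 7 with 4. Intervals are exact (Poisson or conditional binomial). A count of 0 allows 3 reads. Counts of 2-fold ratios needed a mean of 10 CPM in the 2 libraries.

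Named genes were all members, TP63, TP73, tested paralogs, the 2 highest and 2 lowest mean day-7 ratios of each other list, and the 2 genes most correlated with each member, and a few genes under this rule are not reported here. Transcript length and GC content came from GENCODE 44 and were known for 98.2% of the genes over 5 CPM. Scripts were tested on simulated data. Alternatives were the scaling, pseudocount (0.1 CPM), filter, variance trend, removal of the trend with gene structure, baseline, day term, libraries fitted and leaving out each library.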

Additional observations from a re-analysis of the deposited data

Results flagged for a closer look

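Between topotecan day 7 and topotecan day 3, the level differed by a limma test for GDF15 (1.25 on the log2 scale, adjusted p = 0.0065) and ZMAT3 (-0.82, adjusted p = 0.0061). That contrast sets the topotecan libraries of the 2 days against each other and subtracts no untreated library, so time in culture is part of it. After removal of the trend with gene structure, limma called neither (adjusted p of 0.42 and 0.99). For 5 other members both regimens lay on one side of the same-day untreated library on day 3 and on the other side on day 7, a difference that was not tested. The mean log2 ratio was larger on day 7 than on day 3 by 1.43 for CDKN1A, 1.64 for GADD45A, 1.55 for SESN2 and 1.81 for BTG2, and SESN1 went the other way, by -0.73. The untreated day-3 library is the divisor on day 3, and CDKN1A, GADD45A, SESN2 and BTG2 had their highest untreated level in it. Compared directly by limma, topotecan day 7 against topotecan day 3 was 0.44 for CDKN1A, 0.30 for GADD45A and 0.01 for SESN2. It was 0.21 for BTG2 and -0.46 for SESN1, and none of the 5 was called. The share of all genes that changed sides in this way was not counted.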

How the results depend on the processing

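GDF15 kept its call on topotecan day 7 under all 14 distinct alternatives (adjusted p at most 0.0039), and in each fit with treatment and day no member was called. When only the 2 treatments compared were fitted, 34 genes were called in EE-TOPO against untreated, 9 in CONV-TOPO against untreated and 75 in EE-TOPO against CONV-TOPO, and 0 of these were members. Removing the trend with gene span, transcript length and GC content gave 7 calls on topotecan day 3, 3189 on day 7 and 2630 between the 2 days, and turned MDM2 (0.41), PPM1D (0.078), SESN1 (0.21) and GADD45A (-0.36) on day 7 and MDM2 (0.58), ZMAT3 (0.0046), PPM1D (0.060), SESN1 (0.12), GADD45A (-0.17) and SESN2 (-0.25) between the 2 days. SESN2 between the 2 days was also negative with library totals (-0.26). GADD45A on day 7 was also negative with library totals (-0.17) and with untreated libraries of days 3 and 7 only, the same fit as leaving out day 0 (-0.12). Leaving out 1 library gave -0.24 to 0.43 for GADD45A and 0.22 to 1.13 for SESN2 on day 7, -0.16 to 0.18 for SESN2 and -0.054 to 0.47 for BTG2 between the 2 days, 0 to 212 calls on day 3 (212 without untreated day 3), 4046 to 6271 on day 7 (4046 without EE-TOPO day 7) and 3850 to 6924 between the 2 days (3850 without EE-TOPO day 3). It then assumes that a lone library varies like the others. CDKN1A on day 7 was not called without untreated day 0 (0.66), untreated day 7 (0.76) or EE-TOPO day 7 (0.63), with library totals (0.70), or with no filter or no variance trend (adjusted p of 0.056 and 0.059). Members 2-fold apart from untreated numbered 0 in CONV-TOPO on day 3 and 2 on day 7 with library totals, where ZMAT3 was added as lower. In EE-TOPO on day 7 they stayed 3, with ZMAT3 (0.446) added as lower and SESN2 (1.96) lost. Against untreated day 0 they numbered 2 in each regimen on day 3 and 4 in CONV-TOPO on day 7, with GADD45A at 1.06-fold and BTG2 at 1.71-fold in CONV-TOPO on day 3, and against the mean of the untreated libraries 0 in EE-TOPO on day 3. The share of all genes 2-fold apart with library totals, or against that mean, is not given here, so these counts have no background. The causes were not tested. The term for day pairs the libraries by day, and without it limma called 0 genes between any treatments (unadjusted p under 0.05 for 366 genes between EE-TOPO and untreated, 142 between CONV-TOPO and untreated, and 111 between both regimens). Counts under 100 reads limit BTG2 and, on topotecan day 7, SESN1 (92 and 75 reads), and 1 library a group limits every member.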

Other observations

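A list of ATF4 and integrated stress response genes was read beside the members. Of 16 tested, 8 were called higher and 2 lower on topotecan day 7 (limma, all 7 libraries), which is 50% and 12.5% against 20.1% and 23.3% of all genes, with a median log2 fold change of 0.51 against -0.05 over all genes. Without the untreated day-3 library the counts were 11 and 2 (all genes, 19.9% and 22.4%), after removal of the trend with gene structure 4 and 0 (all genes, 10.3% and 12.1%), and with library totals 6 and 2 (all genes, 13.4% and 32.2%). NUPR1, a stress-induced chromatin protein, had a CPM of 19.6, 51.5 and 27.5 without drug on days 0, 3 and 7, of 57.8 and 102 under CONV-TOPO on days 3 and 7, and of 56.4 and 112 under EE-TOPO. DDIT4, an inhibitor of mTORC1, had 15.5, 26.4 and 23.7 CPM in the untreated libraries, 50.5 and 86.7 CPM in CONV-TOPO and 73.4 and 98.5 CPM in EE-TOPO. The lowest ratios were those of the cystine transporter SLC7A11 (-1.13, SE 0.15) and of VLDLR (-0.60, SE 0.20), both with transcripts over 5000 bases. Over the 16 genes the ratio of untreated day 3 to day 0 and the day-7 topotecan ratio had r = 0.57, as a description across genes.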
